A study of Mus musculus with 138 samples.

Results

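The matrix metalloproteinases (MMPs) and the tissue inhibitors of metalloproteinases (TIMPs) described here are 9 genes picked by name from the 55487 genes in the count files: Mmp2, Mmp11, Mmp13, Mmp14, Mmp16, Timp1, Timp2, Timp3 and Timp4. The choice was made with earlier results of these data known. All 9 members of this set were among the 19768 genes that passed the filter on low counts and entered the tests. MMPs are zinc enzymes that cut collagens and other proteins of the extracellular matrix. Most are secreted as proenzymes that must lose a propeptide, some are anchored in the plasma membrane, and TIMPs bind the active enzymes and block them. In skull bones, which form directly from mesenchyme, the matrix at the growing edge is mainly type I collagen, a substrate of several of these enzymes.

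RNA was sequenced from wild-type C57BL/6J mouse embryos, with no transgene, deletion or treatment in any group. At E16.5 and again at E18.5, in the coronal, frontal, lambdoid and sagittal sutures, the suture mesenchyme (SM) between the bones and the osteogenic front (OF) of each adjoining bone were cut out of frozen sections by laser. The coronal suture has a frontal and a parietal OF, the lambdoid suture an interparietal and a parietal OF, the frontal suture a frontal OF and the sagittal suture a parietal OF. This gave 8 groups of SM and 12 groups of OF with 5 embryos each, taken from 2 to 4 litters per suture and stage. Regions were compared within embryos, whereas the embryos of the 2 stages are different animals. Both fronts of the coronal suture, and both fronts of the lambdoid suture, were set against the same SM libraries.

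The first 100 libraries held 7305627 to 34518477 counts on genes (median 14244957), of which 12.8% to 52.4% were mitochondrial. The coronal libraries at E16.5 stood apart, with group means of 36.6% to 38.5% mitochondrial counts, against 23.0% to 24.8% in the coronal groups at E18.5. As a check of the labels, the summed level of 12 osteoblast genes was 15290 to 60430 counts per 1000000 (CPM) in coronal OF and 7022 to 11580 CPM in coronal SM. In the other sutures it was 18360 to 62740 CPM in OF and 10480 to 37120 CPM in SM. SM was not below OF throughout. The sagittal SM at E16.5, with 26900 to 30330 CPM, lay within the range of its OF, which was 24590 to 33930 CPM. In the frontal suture SM and OF overlapped at both stages, with 16270 to 18900 CPM in SM and 18360 to 29210 CPM in OF for E16.5, and 23070 to 34460 CPM in SM and 23310 to 45330 CPM in OF for E18.5. Because the samples are bulk tissue, fewer cells of a type and less RNA per cell cannot be told apart in any result that follows.

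Promoter windows of 250 bases before the start that RefSeq gives each gene were matched (build GRCm38.p6) for 7 of the 9 genes, all but Mmp2 and Mmp16. Those of Mmp13, Timp1, Mmp14 and Timp2 are shown, for 2 proteases and 2 inhibitors. The start differs from that of the files' annotation for some genes, and the windows of Timp2 and Mmp11 lie inside the gene as the files give it. Capitals mark matches, on either strand, to 4 short motifs that share no overlapping letters here. The AP-1 motif searched was TGANTCA. The RUNX motif was AACCACA. The TATA box was TATAAA. The GC box was GGGCGG. Each window is written 5′ to 3′ along the strand of the gene.
Mmp13, chr9:7272264-7272513, plus strand: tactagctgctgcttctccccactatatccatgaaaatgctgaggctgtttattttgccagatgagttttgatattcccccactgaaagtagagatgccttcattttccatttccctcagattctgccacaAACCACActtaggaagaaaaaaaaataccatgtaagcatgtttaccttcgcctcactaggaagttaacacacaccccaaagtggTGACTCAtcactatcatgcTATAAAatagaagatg
Timp1, chrX:20869916-20870165, plus strand: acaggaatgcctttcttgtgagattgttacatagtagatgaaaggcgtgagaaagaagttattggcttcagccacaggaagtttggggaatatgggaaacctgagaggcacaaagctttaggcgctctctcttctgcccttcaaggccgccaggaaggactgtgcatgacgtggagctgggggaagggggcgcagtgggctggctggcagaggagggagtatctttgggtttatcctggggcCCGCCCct
Mmp14, chr14:54431348-54431597, plus strand: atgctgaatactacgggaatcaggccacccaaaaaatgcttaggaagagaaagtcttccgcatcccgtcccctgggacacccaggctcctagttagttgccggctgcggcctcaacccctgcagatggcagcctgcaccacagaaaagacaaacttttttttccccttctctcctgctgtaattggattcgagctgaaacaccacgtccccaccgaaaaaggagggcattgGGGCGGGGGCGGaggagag
Timp2, chr11:118355412-118355661, minus strand: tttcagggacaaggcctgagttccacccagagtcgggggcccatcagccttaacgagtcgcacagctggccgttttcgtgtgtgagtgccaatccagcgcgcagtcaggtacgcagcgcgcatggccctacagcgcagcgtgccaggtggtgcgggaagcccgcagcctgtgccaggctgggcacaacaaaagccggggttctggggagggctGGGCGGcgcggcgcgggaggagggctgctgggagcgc

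The window of Mmp13 held an AP-1 match 35 bases, a RUNX match 119 bases and a TATA match 16 bases before the RefSeq start, and no GC box. Among 32851 such windows of 27025 genes, 6.75% held an AP-1 match, 4.4% a RUNX match and 12.4% a TATA match. The windows of Timp1, Timp2 and Mmp14 held only GC boxes of these motifs, a match 8 bases before the start in Timp1, 37 bases in Timp2 and 19 and 13 bases in Mmp14, and 32.7% of all windows held at least 1. Mmp11 had 2 GC boxes, Timp3 had 1, and the window of Timp4 held none of the 4 motifs. A match describes these letters and is not a measured binding site.

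Levels of different genes were compared as CPM per kilobase of exon length, averaged over the 20 groups. Timp2 was the most abundant of the 9 genes at 143 CPM per kilobase (group means from 69.1 to 216), followed by Mmp2 at 108 (38.1 to 230). Timp1 stood at 48.7 (10.8 to 141), Mmp14 at 39.7 (27.1 to 63.9), Timp3 at 27.3 (11.3 to 40.7) and Mmp16 at 13.8 (5.27 to 19.4). Mmp11 at 4.21 (1.15 to 7.89) and Mmp13 at 2.58 (0.0978 to 12.4) were low, and Timp4 was near the limit of detection at 0.118 (0 to 0.930), with 29 of 100 libraries at 0. Inhibitors were thus both the most and the least abundant of the 9. Ranked by level, neighbouring groups mostly did not differ beyond their spread: of the 19 steps between neighbours, 16 (Timp2) to 19 (Timp4) were smaller than the larger SD of the pair.

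**Figure D1:**
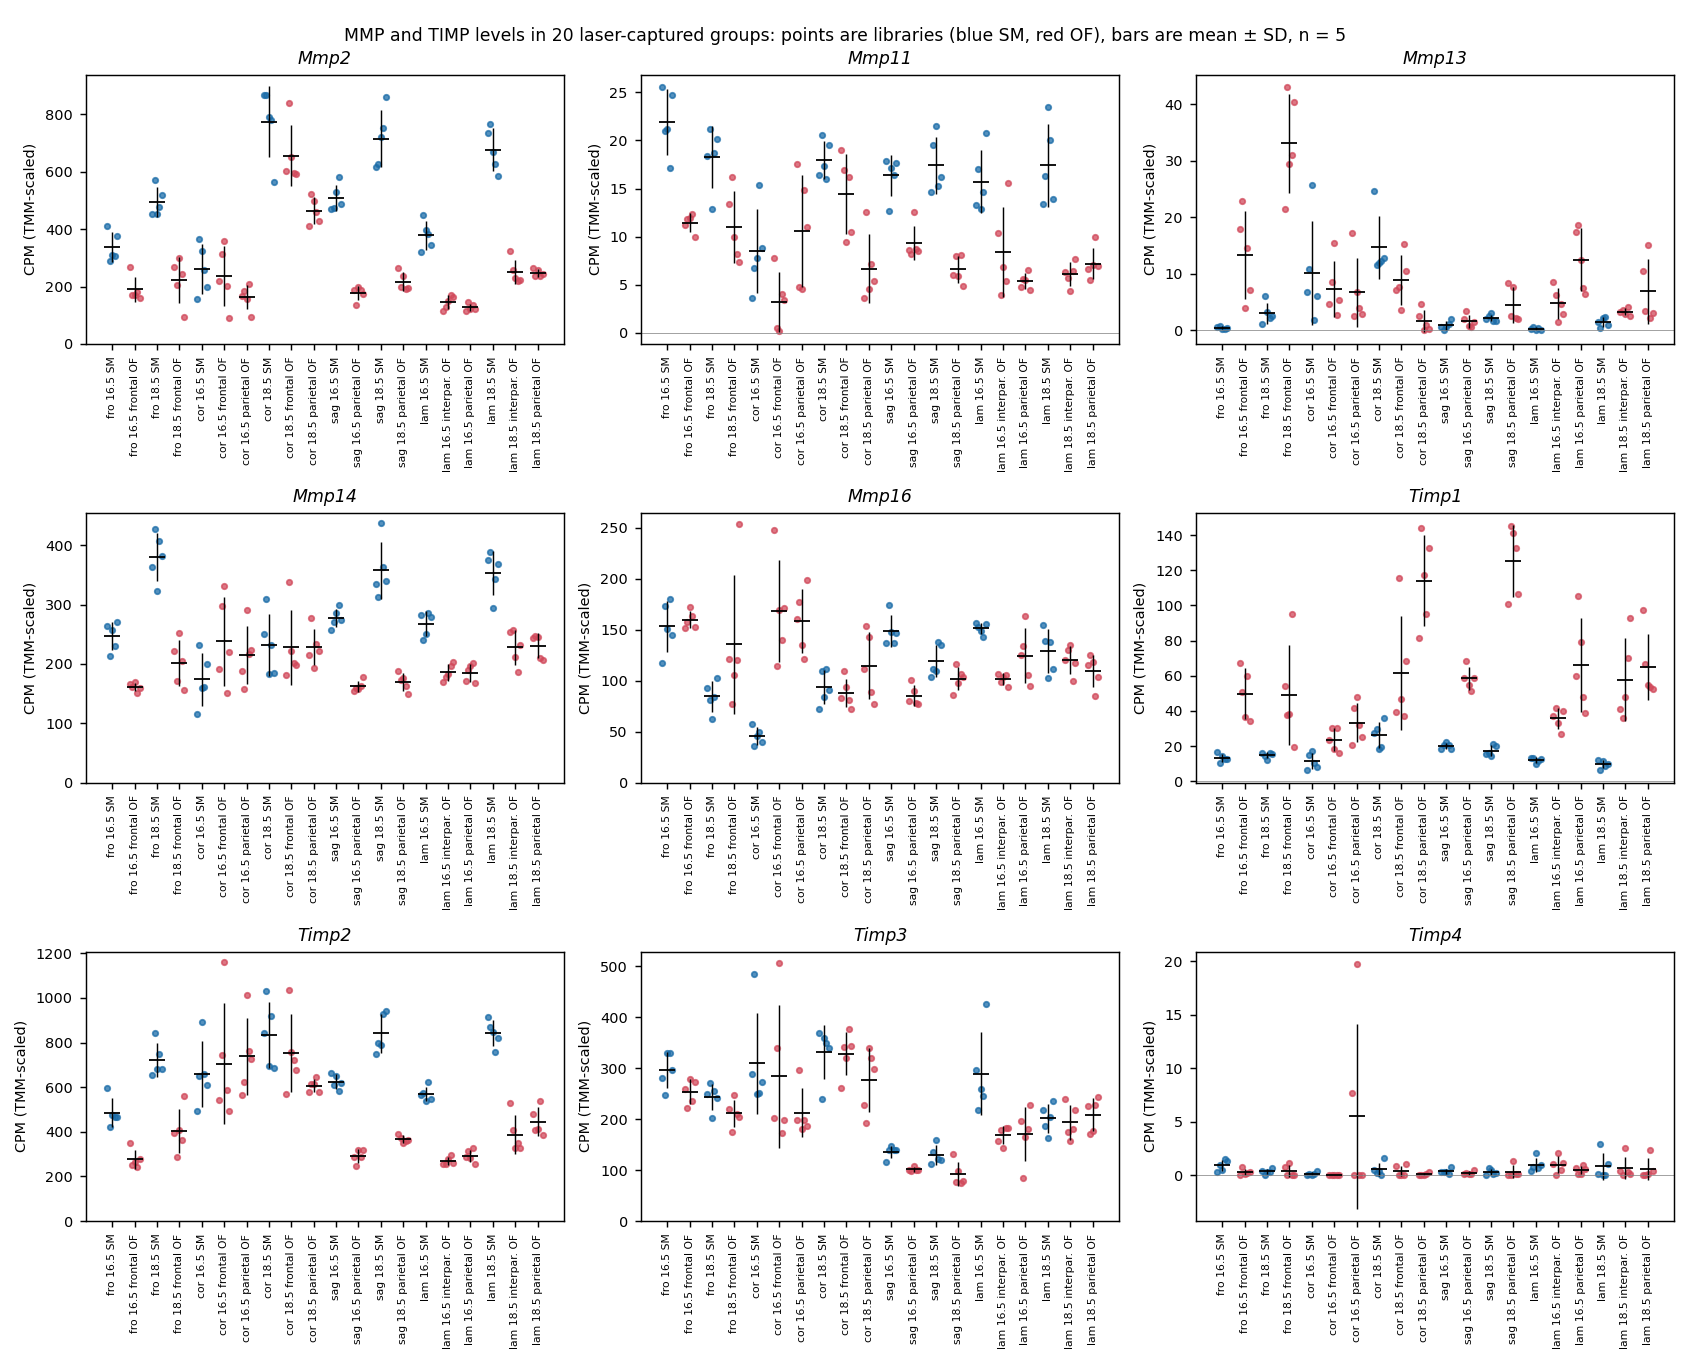
Level of each of the 9 genes in the 20 laser-captured groups (vertical axis, TMM-scaled CPM; points are libraries, bars the mean ± SD of 5 embryos). Timp1 was higher in OF than in SM in every suture, Mmp2, Mmp14 and Timp2 were mostly lower, and Mmp13 in SM reached 25.6 CPM in the coronal suture and at most 6.10 CPM in the others.

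The first question was whether these genes differ between the SM and the OF of the same embryo. Over the mean of the 12 OF minus SM comparisons, all 9 genes passed an adjusted p of 0.05, 3 higher and 6 lower in OF. That bar was passed by 55.7% of all tested genes, 27.5% higher and 28.2% lower. The median log2 difference was -0.42 over the 9 genes and -0.05 over all genes. Single comparisons were more selective: 63 of 108 (9 genes in 12 comparisons) passed, 22 higher and 41 lower in OF, against 19% of all tests, 10.9% higher and 8.15% lower. Since the 9 genes were picked with earlier results of these data known, such counts describe them and are no test of the set. In these comparisons the 5 OF and the 5 SM libraries did not overlap in 17.6% of all tests.

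Members called per comparison ran from 1 to 7 of 9. At E16.5 in the coronal suture, 5 passed at the frontal OF and 5 at the parietal OF, where 27.2% and 33.3% of all genes did. At E18.5 in the same suture, Timp1 alone passed at the frontal OF, where 3.56% of all genes did, and 5 members passed at the parietal OF (18% of all genes). The frontal suture gave 5 and 6 members at the earlier and the later stage (8.93% and 11.3% of all genes), and the sagittal suture 5 and 6 (18.4% and 26.1%). In the lambdoid suture, the interparietal OF gave 7 and 5 members (12% and 20.3%), and the parietal OF 7 and 6 (24% and 24.8%). In each comparison but that at the coronal frontal OF at E18.5, at least 5 of the 9 members passed.

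Mmp2 (ENSMUSG00000031740.8, chr8:92827291-92853420, plus strand, mm10) encodes gelatinase A, a secreted enzyme that degrades denatured collagen and type IV collagen and is activated at the cell surface by the Mmp14 protein together with Timp2. It was lower in OF. At the sagittal suture at E18.5, Mmp2 stood at 617, 628, 719, 752 and 861 CPM in SM and at 266, 199, 237, 193 and 194 CPM in the parietal OF. Each OF library was thus below each SM library, and the log2 difference, given as estimate ± SE throughout, was -1.72 ± 0.16 (adjusted p = 1.21e-13). The SE, also in the figures, was worked back from the test, as the size of the estimate over the square root of its F. Over the mean of 12 the difference was -1.082 ± 0.05 (adjusted p = 4.04e-28), 10 comparisons passed as lower and none as higher, and OF was higher in only 4 of 60 pairs of an embryo's OF and SM. The 2 comparisons that did not pass were both at the coronal frontal OF, with -0.21 at E16.5 (adjusted p = 0.335) and -0.24 at E18.5 (adjusted p = 0.563). With the second coronal libraries in place of the first, for those samples that have one, the former was -0.56 (adjusted p = 0.00746). The coronal parietal OF at E16.5 passed (-0.66 ± 0.16, adjusted p = 6.76e-04), but not when only these OF libraries and their SM were fitted (-0.66, adjusted p = 0.0715).

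Mmp13 (ENSMUSG00000050578.10, chr9:7272514-7283331, plus strand) encodes collagenase 3, which cuts fibrillar collagens and is known from hypertrophic cartilage and bone-forming cells. At the lambdoid suture at E16.5 it stood at 0.258, 0.677, 0, 0.372 and 0 CPM in SM and at 17.5, 18.6, 12.4, 7.502 and 6.38 CPM in the parietal OF, with 8.53, 6.29, 1.52, 4.67 and 2.87 CPM in the interparietal OF. No OF library overlapped SM, and the log2 differences were 5.72 ± 0.77 (adjusted p = 1.45e-08) at the parietal and 4.23 ± 0.75 (adjusted p = 1.99e-05) at the interparietal OF, where the SM libraries at 0 make the size depend on the fit. The frontal suture showed the same direction, with 1.04, 6.10, 3.21, 2.26 and 2.59 CPM in SM and 21.4, 43.1, 29.4, 31.1 and 40.5 CPM in OF at E18.5, a difference of 3.60 ± 0.63 (adjusted p = 1.57e-05). At E16.5 the frontal difference was 4.74 ± 0.70 (adjusted p = 4.22e-07).

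The coronal suture was different. At E18.5, Mmp13 stood at 24.7, 11.5, 11.9, 12.3 and 12.8 CPM in SM, at 7.14, 7.72, 3.59, 15.3 and 10.6 CPM in the frontal OF and at 2.46, 4.58, 0, 0.916 and 0.276 CPM in the parietal OF. The parietal OF lay below all SM libraries, with a difference of -3.74 ± 0.66 (adjusted p = 1.38e-05), whereas the frontal OF overlapped SM (-0.80 ± 0.57, adjusted p = 0.624). At E16.5 no coronal difference passed, with -0.28 at the frontal and -0.37 at the parietal OF, and the SM values ran from 1.81 to 25.6 CPM. All 10 coronal SM libraries held at least 1.81 CPM, while the SM libraries of the other sutures reached at most 6.10 CPM. In wild-type tissue sections the paper placed Mmp13 near this suture mainly on the inner side of the frontal bone. Sagittal differences were 0.83 and 0.80 and did not pass. The test that the 12 differences are equal gave F = 13.52 (adjusted p = 2.1e-10), a test that 23.1% of all genes and 8 of the 9 members passed. At the lambdoid parietal OF at E18.5 the groups overlapped and the call (2.08 ± 0.64, adjusted p = 0.0108) was lost without replicate 1 (1.77, adjusted p = 0.0936) or replicate 3 (1.77, adjusted p = 0.0613).

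Mmp11 (ENSMUSG00000000901.17, chr10:75923222-75936496, minus strand, with 155 exon bases shared with Chchd10 on the other strand) encodes stromelysin 3, an MMP that is activated inside the cell by furin. Its mean difference was -1.09 ± 0.11 (adjusted p = 6.32e-13), with 6 comparisons lower, none higher, and OF higher in 5 of 60 embryo pairs. At the coronal suture at E18.5, SM held 16.4, 20.6, 17.4, 15.98 and 19.5 CPM and the parietal OF 3.59, 12.6, 4.52, 7.17 and 5.41 CPM, without overlap (-1.54 ± 0.35, adjusted p = 6.40e-04). At E16.5 it was the frontal OF that was low, with 7.77, 0.512, 0.173, 4.06 and 3.45 CPM against 3.58, 6.76, 7.81, 15.4 and 8.83 CPM in SM (-2.03 ± 0.38, adjusted p = 3.84e-05). Those groups overlapped, and the difference was not past the threshold with the second libraries (-0.70, adjusted p = 0.14). Nor did it pass when only these frontal OF and SM libraries were fitted (-2.21, adjusted p = 0.376).

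Mmp14 (ENSMUSG00000000957.11, chr14:54431612-54445364, plus strand) encodes the membrane-type 1 MMP, which cuts fibrillar collagen at the cell surface and activates the Mmp2 proenzyme. It was lower in all 8 OF of the frontal, lambdoid and sagittal sutures, where no OF library overlapped SM. At the sagittal suture at E18.5, SM held 335, 313, 438, 364 and 340.0 CPM and OF 188, 172, 177, 162 and 149 CPM, a difference of -1.07 ± 0.13 (adjusted p = 4.95e-10). In the coronal suture at E16.5 the sign turned. There Mmp14 stood at 116, 232, 159.5, 161 and 201 CPM in SM and at 191, 297, 332, 151 and 219.7 CPM in the frontal OF, a difference of 0.43 ± 0.13 (adjusted p = 0.00813), and at the parietal OF it was 0.33 ± 0.13 (adjusted p = 0.0425). Both groups overlapped SM, and both calls were fragile. The frontal call was lost without replicate 1 (adjusted p = 0.0674), without replicate 3 (adjusted p = 0.132), without TMM (adjusted p = 0.174) and with the second libraries (0.14, adjusted p = 0.495). The parietal call was lost without replicate 1, 3, 4 or 5 (adjusted p = 0.321, 0.332, 0.157 and 0.0796) and with the second libraries (0.15, adjusted p = 0.403). At E18.5 the coronal differences were -0.03 and -0.01.

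Mmp16 (ENSMUSG00000028226.15, chr4:17852893-18119145, plus strand) encodes membrane-type 3 MMP, a relative of Mmp14. The test that its 12 differences are equal gave F = 22.79 (adjusted p = 1.61e-14), the largest F of the 9 genes. In the coronal suture at E16.5 it stood at 57.7, 35.9, 45.9, 49.3 and 39.4 CPM in SM, at 248, 114, 169, 139.8 and 171 CPM in the frontal OF and at 160.5, 177, 135, 122 and 199 CPM in the parietal OF. Both fronts lay above SM without overlap, with differences of 1.86 ± 0.15 (adjusted p = 1.91e-15) and 1.81 ± 0.15 (adjusted p = 2.95e-15), and both held with the second libraries (1.62 and 1.66, adjusted p = 3.52e-14 and 8.23e-15). In the sagittal suture of the same age the order was the reverse, with 136, 174, 148, 137 and 147 CPM in SM and 80.3, 101, 89.9, 78.2 and 77.5 CPM in OF (-0.80 ± 0.14, adjusted p = 1.57e-05). The lambdoid interparietal OF at E16.5 was also lower (-0.58 ± 0.14, adjusted p = 0.00318). The frontal OF of the frontal suture at E18.5 passed as higher (0.58 ± 0.15, adjusted p = 0.00382), but this rested on replicate 5 at 254 CPM, the others lying at 76.9 to 121 CPM, and without replicate 5 it was 0.39 (adjusted p = 0.137). That library was 1 of 3 with over 45% mitochondrial counts, and without those 3 the difference was 0.40 (adjusted p = 0.097). The mean of 12, 0.19 ± 0.05 (adjusted p = 8.90e-04), was lost without replicate 3 (0.12, adjusted p = 0.0626) and without TMM (0.06, adjusted p = 0.336).

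Timp1 (ENSMUSG00000001131.11, chrX:20870166-20874735, plus strand, inside an intron of Syn1 on the other strand, with no shared exon) encodes a secreted inhibitor of most soluble MMPs. It was the only member past the threshold in all 12 comparisons, always higher in OF, and it was higher in OF in 60 of 60 embryo pairs. At the sagittal suture at E18.5 it stood at 15.5, 16.2, 14.4, 21.01 and 20.01 CPM in SM and at 101, 145, 141, 133 and 107 CPM in OF. The ranges were far apart, and the log2 difference of 2.84 ± 0.24 (adjusted p = 4.02e-15) was the largest of the 12. In the lambdoid suture at E16.5, SM held 13.2, 13.1, 9.61, 11.3 and 12.8 CPM and the parietal OF 59.9, 105, 79.2, 47.9 and 38.6 CPM (2.41 ± 0.24, adjusted p = 2.33e-12). The smallest differences were at the coronal frontal OF. There, at E16.5, SM held 6.21, 15.2, 17.2, 10.3 and 8.04 CPM and OF 23.4, 30.5, 18.4, 30.1 and 15.9 CPM, the only pair of groups that overlapped (1.13 ± 0.23, adjusted p = 1.44e-04). Fitted on its own libraries that difference was 1.11 (adjusted p = 0.236), and with the second libraries it was 1.68 (adjusted p = 3.53e-06). The mean of 12 was 1.92 ± 0.08 (adjusted p = 6.89e-30), and the differences were not equal (F = 7.33, adjusted p = 2.86e-06).

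Timp2 (ENSMUSG00000017466.9, chr11:118301069-118355740, minus strand) encodes an inhibitor that also takes part in the activation of Mmp2 by Mmp14. It moved like Mmp14, lower in all 8 OF outside the coronal suture and without overlap. At the sagittal suture at E18.5, SM held 749, 799.6, 789, 929 and 941 CPM and OF 392, 374, 348, 357 and 365 CPM (-1.19 ± 0.11, adjusted p = 2.04e-13). Among the coronal comparisons only the parietal OF at E18.5 passed, with 578, 614, 614, 647 and 580.2 CPM against 844, 1032, 696, 917 and 685 CPM in SM (-0.44 ± 0.11, adjusted p = 0.00235), again without overlap. The other 3 coronal differences were 0.06, 0.16 and -0.16. The mean of 12 was -0.71 ± 0.04 (adjusted p = 4.91e-26), and the spread over the 12 gave F = 13.80 (adjusted p = 1.46e-10).

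Timp3 (ENSMUSG00000020044.13, chr10:86300372-86349506, plus strand) encodes a matrix-bound inhibitor that also acts on adamalysins such as Adam17. It shares 1733 exon bases with Syn3 on the other strand, and counting ignored strand, so reads there cannot be told apart. Its differences were small, with a mean of -0.32 ± 0.05 (adjusted p = 3.29e-07) and 4 comparisons lower. In the lambdoid suture at E16.5, SM held 296, 218, 259.9, 246 and 426 CPM, the interparietal OF 158, 178, 143, 183 and 182 CPM and the parietal OF 197, 85.2, 166, 181 and 228 CPM. The interparietal OF was below all SM libraries (-0.72 ± 0.16, adjusted p = 5.98e-04), while the parietal OF overlapped SM (-0.77 ± 0.16, adjusted p = 1.25e-04). The coronal parietal OF at E16.5 passed as well (-0.52 ± 0.16, adjusted p = 0.00716), but not with only these OF libraries and their SM fitted (-0.52, adjusted p = 0.0559). The sagittal call at E18.5 (-0.51 ± 0.16, adjusted p = 0.0107) was lost without replicate 4 (-0.47, adjusted p = 0.0831) or replicate 5 (-0.48, adjusted p = 0.0674).

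Timp4 (ENSMUSG00000030317.8, chr6:115241892-115252205, minus strand, with 90 exon bases shared with Syn2) encodes an inhibitor best known from heart muscle. It was at 0 in 7 of 40 SM and 22 of 60 OF libraries. The single call was at the coronal frontal OF at E16.5, where all 5 OF libraries were at 0 and SM held 0, 0.0855, 0, 0.107 and 0.363 CPM, so that both groups were near 0 and no fold is given. At the coronal parietal OF of the same age, Timp4 was at 7.63, 0, 19.8, 0 and 0 CPM, so that 2 embryos made up the whole level. The mean of 12 (adjusted p = 0.0297) was lost without replicate 2 (adjusted p = 0.351), 4 (adjusted p = 0.0557) or 5 (adjusted p = 0.244).

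Per kilobase, the summed level of the 5 MMPs was below that of the 4 TIMPs in all 12 OF groups. The log2 ratio of MMP to TIMP sums ran from -1.20 ± 0.29 (SD, n = 5; coronal parietal OF, E16.5) to -0.24 ± 0.18 (coronal frontal OF, E18.5). In SM it ran from -0.92 ± 0.19 (coronal, E16.5) to 0.22 ± 0.10 (sagittal, E18.5). RNA sums say nothing of enzyme activity, and the ratio was not tested.

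Markers of other cell types also differed between regions. In SM of the frontal, lambdoid and sagittal sutures, 6 hypodermis genes summed to 318 to 679 CPM, against 29.8 to 194 CPM in OF. The 8 macrophage genes summed to 85.2 to 252 CPM in SM and 61.5 to 166 CPM in OF, and 7 of the 8 were lower over the mean of 12. Summed over 4 mast cell genes, SM held 40.6 to 416 CPM and OF 2.36 to 235 CPM, and 6 skeletal muscle genes ran from 6.64 to 250 CPM in SM and from 0.467 to 90.2 CPM in OF. None of the 7 neutrophil genes passed the filter. In the coronal suture the hypodermis sums of SM (12.8 to 71.3 CPM) and OF (15.3 to 138 CPM) overlapped. The macrophage sums of SM at E18.5 lay above those of both fronts there, with 138.6 to 175.2 CPM in SM, 103.7 to 121.2 CPM in the frontal OF and 61.4 to 104.2 CPM in the parietal OF. Summed over 7 endothelial genes, that SM held 234.3 to 295.8 CPM and its parietal OF 55.1 to 89.6 CPM, the comparison in which Mmp2, Mmp11, Mmp13 and Timp2 were lower in OF. In the sagittal suture the macrophage group means lay close together, at 90.6 CPM in SM and 94.0 CPM in OF for E16.5 and at 100.5 and 97.3 CPM for E18.5. Over the mean of 12 comparisons, and not in each, 11 of the 12 osteoblast genes were called higher in OF (median log2 difference 3.34). Over the same mean, all 8 of 8 proliferation genes were (median 0.67). The part of these cell types in the members' differences was not tested.

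Over the mean of 12, the remaining lists gave 1 higher and 3 lower of 5 suture mesenchyme genes, 4 lower of 5 ectocranial mesenchyme genes, 3 lower of 6 hypodermis genes, 3 lower of 7 dura mater genes, 1 higher and 2 lower of 3 periosteal genes, and 1 higher and 4 lower of 5 pericyte genes. Chondrocyte genes gave 2 higher and 3 lower of 7, erythroid genes 3 lower of 6, skeletal muscle genes 2 lower of 5 and neuron genes 1 higher and 2 lower of 4. No osteoclast (4 tested), mast cell (4), endothelial (7) or epidermis (3) gene passed.

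Other genes of the pathway were read from lists chosen by role. Of 18 other MMP genes 10 were tested, and over the mean of 12 there were 2 higher and 1 lower in OF (median log2 difference 0.10). Mmp8, the neutrophil collagenase, was higher by 3.13 ± 0.42 (adjusted p = 2.8e-09) at mean levels of 2.62 CPM in OF and 0.693 CPM in SM. Mmp27 was higher by 4.13 ± 0.54 (adjusted p = 2.58e-09), at 1.16 CPM in OF and 0.0993 CPM in SM. Mmp19 fell by 0.66 ± 0.18 (adjusted p = 0.00165). The 7 neutrophil genes summed to at most 9.32 CPM in every library, and the part of neutrophils in the Mmp8 difference was not tested.

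Of 13 genes that activate MMPs or hold them back, 12 were tested, with 4 higher and 5 lower in OF (median -0.07). The higher genes included Pcsk6, a proprotein convertase (2.57 ± 0.07, adjusted p = 8.26e-39), Plaur, the urokinase receptor (1.78 ± 0.12, adjusted p = 4.73e-21), and Bsg, an inducer of MMPs (0.70 ± 0.07, adjusted p = 1.01e-12). The lower genes included Thbs2, which helps to clear Mmp2 (-1.17 ± 0.04, adjusted p = 3e-36), the convertase Pcsk5 (-0.69 ± 0.05, adjusted p = 4.15e-18), the endocytic receptor Lrp1 (-0.63 ± 0.07, adjusted p = 7.29e-12) and Furin, the convertase that activates Mmp11 and Mmp14 (-0.20 ± 0.08, adjusted p = 0.0203).

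Of 6 adamalysins held by Timp3, Adamts9 (0.57 ± 0.06) and Adam10 (0.33 ± 0.05) were higher in OF and Adamts5 lower (-0.29 ± 0.08), with a median of 0.03. All 6 fibrillar collagen genes, whose products MMPs cut, passed. The type I chains Col1a1 (0.70 ± 0.05) and Col1a2 (0.66 ± 0.04) were higher, as were Col5a1 (0.26 ± 0.05) and Col5a2 (0.22 ± 0.03), while Col3a1 (-0.81 ± 0.04) and the cartilage collagen Col2a1 (-1.27 ± 0.14) were lower.

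Whether the difference between OF and SM changed with stage was tested as a difference of differences. It passed in 5 of 54 tests, 1 higher and 4 lower at E18.5, against 1.9% of all tests (0.957% higher, 0.943% lower), and all 5 were in the coronal suture. There 5.9% of all genes passed at the frontal OF and 4.99% at the parietal OF, against 0.0202% in the frontal suture, 0.126% and 0.177% at the lambdoid interparietal and parietal OF, and 0.182% in the sagittal suture. The lead of OF over SM in Mmp16 fell by 1.96 on the log2 scale at the frontal OF (SE 0.21, adjusted p = 2.01e-09) and by 1.55 at the parietal OF (SE 0.21, adjusted p = 1.95e-06), to differences of -0.11 and 0.26 at E18.5. Both changes remained with the second libraries (-1.53 and -1.46). Among the tests that did not pass, those of members other than Timp4 ran from -3.64 (Mmp13, lambdoid parietal OF, adjusted p = 0.156) to 1.30 (Timp1, sagittal suture, adjusted p = 0.0645).

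The other 3 changes were less firm. At the parietal OF, Mmp13 changed by -3.37 ± 0.88 (adjusted p = 0.0158), which was lost without replicate 1 (adjusted p = 0.0925), 4 (adjusted p = 0.0983) or 5 (adjusted p = 0.0679) and without the embryo block (adjusted p = 0.0578), and remained with the second libraries (-3.51, adjusted p = 0.0121). Timp2 changed there by -0.61 ± 0.16 (adjusted p = 0.0151), lost without replicate 1 (adjusted p = 0.0571) or 4 (adjusted p = 0.0515). Mmp11 changed at the frontal OF by 1.68 ± 0.51 (adjusted p = 0.0351), lost without replicate 2, 3 or 4 (adjusted p = 0.163, 0.158 and 0.123), without the embryo block (1.09, adjusted p = 0.183) and with the second libraries (0.51, adjusted p = 0.665). Mitochondrial counts moved with stage in this suture, from group means of 36.6% to 38.5% at E16.5 to 23.0% to 24.8% at E18.5, and their part in the result was not tested. With DESeq2 8 of 54 changes passed, and without the filter on low counts 9, and the shares of all tests under these settings are not given here.

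The 2 fronts that meet at a suture were also compared. Of 36 tests 7 passed, 3 higher and 4 lower in the frontal than in the parietal OF (coronal) or in the interparietal than in the parietal OF (lambdoid), against 4.08% of all tests (2.13% higher, 1.95% lower). Without TMM, and with median-ratio factors, the split was 4 higher and 3 lower, and with the second coronal libraries 3 of 36 passed. The 4.08% is the share in the main fit, and those under these settings are not given here. Groups were apart in 2.75% of all tests. In the coronal suture 8.97% of all genes passed at E16.5 and 6.31% at E18.5, and in the lambdoid suture 1.03% and 0.0152%.

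Mmp13 differed between the fronts of the coronal suture at E18.5. The frontal OF held 7.14, 7.72, 3.59, 15.3 and 10.6 CPM and the parietal OF 2.46, 4.58, 0, 0.916 and 0.276 CPM, so that 1 parietal library reached the frontal range, and frontal minus parietal was 2.94 ± 0.65 (adjusted p = 0.00175). It passed without each replicate (2.46 to 3.79) and with the second libraries (2.86, adjusted p = 0.000942). In the same pair Timp1 had the opposite sign, with 39.2, 115, 46.97, 37.4 and 68.2 CPM in the frontal and 81.3, 144, 117, 95.3 and 133 CPM in the parietal OF (-0.99 ± 0.23, adjusted p = 0.0024), a call lost without replicate 4 (-0.85, adjusted p = 0.0512) and with the second libraries (-0.72, adjusted p = 0.0941). Mmp11 was higher in the frontal OF at E18.5 (1.18 ± 0.35, adjusted p = 0.0241) and lower there at E16.5 (-2.001 ± 0.36, adjusted p = 2.57e-04). The E18.5 value was lost without replicate 1, 4 or 5 (adjusted p = 0.146, 0.107 and 0.0578), and the E16.5 value with the second libraries (-0.31, adjusted p = 0.707). Markers of other cell types differed between these fronts at E18.5. The endothelial genes summed to 161.6 to 375.7 CPM in the frontal and 55.1 to 89.6 CPM in the parietal OF, and the group means were 830.5 against 494.8 CPM for 5 pericyte genes, 104.9 against 36.4 CPM for the hypodermis genes and 20980 against 38570 CPM for the osteoblast genes. Their part in the differences between the fronts was not tested.

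Mmp2 was higher in the frontal OF at E18.5 (0.49 ± 0.16, adjusted p = 0.0418), with the groups apart, but the call was lost without replicate 1, 2, 3 or 4 (adjusted p = 0.0933, 0.161, 0.0635 and 0.0839). The Timp4 call at E16.5 (adjusted p = 0.0178) set a group at 0 against the 2 embryos named above. In the lambdoid suture only Timp1 at E16.5 passed, lower in the interparietal OF (-0.84 ± 0.23, adjusted p = 0.0478), and it was lost without replicate 1, 2, 3 or 4 (adjusted p = 0.109, 0.423, 0.323 and 0.185). No front-to-front difference of Mmp14 (-0.02 to 0.11), Timp3 (-0.11 to 0.36), Mmp16 (-0.37 to 0.14) or Timp2 (-0.22 to 0.28) passed.

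Levels at E18.5 were then set against those at E16.5, between different embryos. Of 90 tests 26 passed, 21 higher and 5 lower at E18.5, against 8.55% of all tests (4.42% higher, 4.13% lower), and groups were apart in 7.17% of all tests. Embryos of a litter may not vary independently, and with the littermates of a group summed 12 of 90 passed, 10 higher and 2 lower. The 8.55% belongs to the main fit, and the share of all tests with littermates summed is not given here. All 12 were among the 26. They were Mmp2 and Timp1 in the 3 coronal regions, Mmp16 in coronal SM and frontal OF, Mmp11 in the coronal frontal OF, Mmp14 in coronal SM, Timp4 in the coronal parietal OF and Mmp2 in lambdoid SM. The other 14 calls did not pass with littermates summed (adjusted p = 0.064 to 0.581). In the coronal suture 5 members passed in each region, where 27.1% (SM), 24.4% (frontal OF) and 20.4% (parietal OF) of all genes did. In the frontal suture it was 4 members in SM (2.33% of all genes) and 1 in OF (4.32%). The lambdoid suture gave 2 in SM (3.01%), 1 in the interparietal OF (0.293%) and 2 in the parietal OF (1.01%), and the sagittal suture 0 in SM (1.1%) and 1 in OF (1.59%). In sagittal SM, Mmp2 (469 to 580 and 617 to 861 CPM), Mmp14 (258 to 300 and 313 to 438 CPM) and Timp2 (581 to 665 and 749 to 941 CPM) were still higher at E18.5 without overlap. The other members overlapped there, and 7.03% of all genes were apart.

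Markers of other cell types also differed between the stages of the coronal suture. The 8 macrophage genes summed to 49.5 to 73.8 CPM at E16.5 against 138.6 to 175.2 CPM at E18.5 in SM, and to 45.3 to 69.3 CPM against 103.7 to 121.2 CPM in the frontal OF, while the parietal OF overlapped (66.8 to 91.8 and 61.4 to 104.2 CPM). Summed over 3 periosteal genes, the earlier libraries held 2812 to 3956 CPM over the 3 regions and the later ones 4645 to 7877 CPM. In the frontal OF, the 5 pericyte genes held 139.2 to 506 CPM at the earlier and 534.9 to 1010 CPM at the later stage. In the parietal OF these were 179.8 to 340.7 CPM and 363.6 to 610.1 CPM, and the endothelial genes there held 110.7 to 404.4 CPM and then 55.1 to 89.6 CPM. In SM, the 5 suture mesenchyme genes held 3984 to 4788 CPM and then 2552 to 3186 CPM. Higher in SM at E18.5, without overlap, were also the chondrocyte (97.9 to 131.3 and 250.4 to 339.6 CPM), ectocranial mesenchyme (721.1 to 1559 and 1741 to 2075 CPM), hypodermis (12.8 to 37.3 and 51.6 to 71.3 CPM) and osteoclast sums (20.7 to 82.1 and 82.2 to 149.4 CPM). The osteoclast sums of the frontal OF (61.2 to 82.4 and 83.3 to 102.1 CPM) and the chondrocyte sums of the parietal OF (216.3 to 274.8 and 302.3 to 552.8 CPM) were apart as well. In frontal SM the osteoblast sums, with the ranges given near the start, were also higher at E18.5 without overlap. Other marker sums of the frontal, lambdoid and sagittal sutures were not compared between stages here. The part of marked cell types in the stage differences of the members was not tested.

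Mmp2 was higher at E18.5 in 6 of 10 regions. In coronal SM it stood at 157, 366, 325, 258 and 197 CPM at the earlier stage and at 868, 866, 791, 781 and 564 CPM at the later, without overlap (1.57 ± 0.19, adjusted p = 1.14e-09), and both coronal fronts differed alike (1.47 ± 0.19 and 1.51 ± 0.19). With the second libraries the 3 values were 1.02, 1.24 and 1.30, and without libraries over 45% mitochondrial counts they were 1.484, 1.25 and 1.495. No coronal parietal OF library was over that limit (at most 42.7% at E16.5), so the last value is a refit of the same libraries. The other coronal libraries of E16.5 stayed, so these values are no check on the difference in mitochondrial counts between the stages. In the lambdoid suture Mmp2 was higher in SM by 0.84 ± 0.19 (adjusted p = 0.00317), a call lost without replicate 1 (0.76, adjusted p = 0.0547), and in the parietal OF by 0.94 ± 0.19 (adjusted p = 0.00183), which failed with littermates summed (adjusted p = 0.0868). The interparietal call (0.78 ± 0.19, adjusted p = 0.0367) was lost without replicate 1, 2, 3 or 4 (adjusted p = 0.475, 0.199, 0.131 and 0.107).

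Timp1 was higher at E18.5 in all 3 coronal regions, by 1.19 ± 0.27 in SM, 1.38 ± 0.26 in the frontal OF and 1.77 ± 0.27 in the parietal OF. With the second libraries these were 1.02, 0.36 and 1.02 and none passed (adjusted p = 0.0549, 0.584 and 0.064). The groups then mixed first and second libraries, between which Timp1 differed by a median of 1.28 on the log2 scale. In SM of the other sutures Timp1 did not pass, with values from -0.31 to 0.16. The sagittal OF passed (1.10 ± 0.26, adjusted p = 0.00838), with 58.8, 68.5, 54.95, 51.1 and 58.7 CPM at E16.5 against 101, 145, 141, 133 and 107 CPM at E18.5 and no overlap, but not without replicate 3 (adjusted p = 0.0891) or 4 (adjusted p = 0.0643).

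Mmp16 went in opposite directions within the coronal suture. It was higher at E18.5 in SM (1.04 ± 0.17, adjusted p = 3.27e-06) and lower in the frontal OF (-0.94 ± 0.17, adjusted p = 2.26e-05) and the parietal OF (-0.47 ± 0.17, adjusted p = 0.0418). With the second libraries the values were 0.92, -0.65 and -0.53, all past the threshold. The parietal call was lost without replicate 1, 4 or 5 (adjusted p = 0.0914, 0.0662 and 0.216). Mmp16 was also lower at E18.5 in the SM of the frontal suture, with 117, 173, 151, 180.2 and 145 CPM at E16.5 and 93.01, 81.4, 62.1, 84.3 and 102 CPM at E18.5 (-0.86 ± 0.17, adjusted p = 9.79e-04), although not with littermates summed (adjusted p = 0.125).

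Mmp11 was higher at E18.5 in the coronal frontal OF (2.17 ± 0.37, adjusted p = 6.47e-06) and in coronal SM (1.084 ± 0.36, adjusted p = 0.0169). Both failed with the second libraries (0.75 and 0.27, adjusted p = 0.0927 and 0.624), and the SM call was lost without replicate 1 (adjusted p = 0.0906) or 5 (adjusted p = 0.0674). Mmp13 was lower in the coronal parietal OF (-2.02 ± 0.64, adjusted p = 0.0163), lost without replicate 1 (adjusted p = 0.153), and higher in frontal SM (2.69 ± 0.71, adjusted p = 0.0192), lost without replicate 2, 3, 4 or 5 (adjusted p = 0.0953, 0.0712, 0.118 and 0.059). Timp4 passed in both coronal fronts, each time with 1 stage at or near 0. Timp3 passed nowhere.

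Mmp14 was higher at E18.5 in coronal SM (0.42 ± 0.14, adjusted p = 0.0226) and frontal SM (0.62 ± 0.14, adjusted p = 0.00539), and Timp2 in frontal SM (0.57 ± 0.15, adjusted p = 0.0152), the frontal OF (0.54 ± 0.15, adjusted p = 0.0173), lambdoid SM (0.57 ± 0.15, adjusted p = 0.0127) and the lambdoid parietal OF (0.61 ± 0.15, adjusted p = 0.0165). Each of these 6 calls was lost without at least 1 replicate. The adjusted p was 0.261 and 0.0938 without replicates 1 and 4 for Mmp14 in coronal SM, and 0.114 without replicate 4 in frontal SM. For Timp2 it was 0.176 and 0.2 without replicates 2 and 4 in frontal SM, 0.0589 and 0.326 without replicates 4 and 5 in the frontal OF, 0.0691 and 0.0542 without replicates 1 and 2 in lambdoid SM, and 0.0623 and 0.169 without replicates 1 and 4 in the lambdoid parietal OF.

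Averaged over the SM of the 4 sutures, 4 members were higher at E18.5, where 11% of all genes passed in either direction. These were Mmp2 (0.86 ± 0.10, adjusted p = 1.10e-11), Mmp13 (1.76 ± 0.35, adjusted p = 1.22e-04), Mmp14 (0.45 ± 0.07, adjusted p = 1.23e-06) and Timp2 (0.48 ± 0.07, adjusted p = 4.62e-07). The other 5 ran from -0.19 (Timp3) to 0.26 (Mmp11) and did not pass. Over the same mean, Mmp23 (0.99 ± 0.14) and Mmp19 (0.88 ± 0.27) were higher among 10 other MMP genes (median 0.14), and Pcsk6 (0.75 ± 0.12) and Thbs2 (0.40 ± 0.07) among 12 genes of activation and inhibition (median 0.25). Adamts5 was lower (-0.50 ± 0.12) among 6 adamalysins (median -0.05), and 5 of 6 fibrillar collagen genes were higher (0.21 to 0.46), with Col2a1 lower. Beside these, 5 of 8 macrophage genes and 3 of 7 endothelial genes were higher and all 8 proliferation genes lower at E18.5, and their part in the members' differences was not tested.

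The 16 libraries of complete sutures at E18.5 (8903413 to 15155332 counts) were labelled as controls for normalization and hold 1 sample per suture in each of 4 library sets, written C, IF, L and S here after their labels. The labels give every suture 1 replicate number and no litter, so the 4 sets may be libraries of the same tissue, and no test between sutures was run. Mmp13 stood at 536, 344, 412 and 483 CPM in the coronal suture in sets C, IF, L and S, at 273, 145, 192 and 238 CPM in the lambdoid, at 34.1, 24.4, 31.3 and 35.5 CPM in the frontal and at 21.8, 11.1, 14.9 and 20.3 CPM in the sagittal suture. The order of the sutures was the same in all 4 sets. The laser-captured groups at E18.5 held 1.49 to 32.9 CPM on the same scale, so that complete coronal and lambdoid sutures lay above the mean of every captured group.

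Markers of other cells also differed between complete and captured sutures. Summed over 7 osteoclast genes, complete coronal sutures held 867 to 972 counts per 1000000 of all counts against 64.1 to 159 in captured coronal libraries of that stage, and lambdoid sutures 186 to 202 against 74.1 to 126. Summed over 9 chondrocyte genes, complete lambdoid sutures held 6161 to 8124 against 371 to 544, and coronal sutures 565 to 709 against 241 to 434. Complete sagittal sutures held 1178 to 1445 against 340 to 764, and frontal sutures 266 to 297 against 169 to 407. Summed over 6 skeletal muscle genes, complete coronal sutures held 147.4 to 283.8 against 0.401 to 3.66 and lambdoid sutures 493.6 to 824 against 1.72 to 32.2, whereas frontal (5.60 to 12.7) and sagittal sutures (7.27 to 11.4) lay within their captured ranges. The part of these cells in the level of Mmp13 was not tested.

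**Figure D2:**
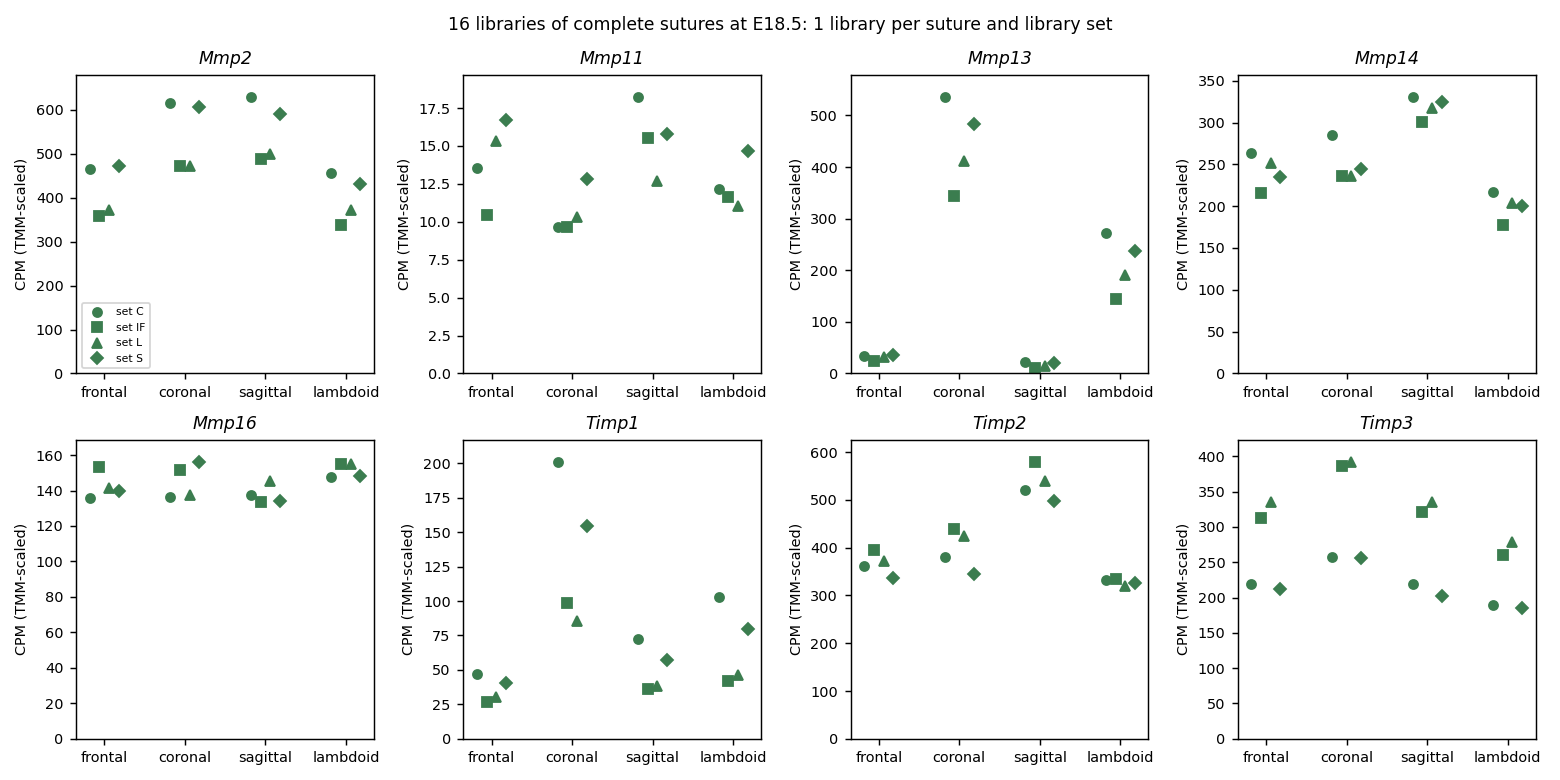
Level of 8 genes in complete sutures at E18.5 (vertical axis, TMM-scaled CPM; 1 point per suture and library set C, IF, L or S, with no replicates). Mmp13 fell in the order coronal, lambdoid, frontal, sagittal in all 4 sets, and Timp1 in the order coronal, lambdoid, sagittal, frontal.

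Timp1 in complete sutures was 201, 98.5, 85.3 and 155 CPM in the coronal suture, 103, 42.3, 46.4 and 79.7 CPM in the lambdoid, 72.6, 36.1, 37.98 and 56.98 CPM in the sagittal and 47.2, 26.4, 30.1 and 40.5 CPM in the frontal suture, again in 1 order in all sets. The 12 osteoblast genes summed to 26200 to 39230 counts per 1000000 in complete coronal, 17500 to 28010 in lambdoid, 13340 to 19830 in sagittal and 9695 to 13830 in frontal sutures, the same order by both ends of the range, and their part in the level of Timp1 was not tested. The sets themselves differed, with a mean of 106 CPM in set C, 82.9 in S, 50.8 in IF and 49.95 in L. Timp3 had the reverse pattern over sets, with 221 and 214 CPM in C and S and 320.4 and 335 CPM in IF and L. Within a suture the highest set was up to 2.44 times the lowest for Timp1, 1.96 times for Mmp13 and 1.66 times for Timp3, but 1.15 times for Mmp16. Timp2 (498 to 580 CPM) and Mmp14 (301 to 331 CPM) were highest in the sagittal suture in all 4 sets, while Mmp2 ran from 339 to 630 CPM, Mmp11 from 9.67 to 18.3 CPM and Timp4 from 0 to 2.24 CPM. The set of each captured library is not given in the sources used here, and the part of sets in differences between captured sutures was not tested.

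The 18 second coronal libraries (5530060 to 17388841 counts) are from samples that also have a first library. Timp1 was higher in 18 of 18 second libraries (median log2 difference 1.28), Timp3 in 0 of 18 (-0.55) and Timp2 in 1 of 18 (-0.71). Mmp2 was higher in 16 (0.18), Mmp14 in 15 (0.33), Mmp13 in 15 (0.62), Mmp11 in 13 (0.51) and Mmp16 in 5 (-0.24). These shifts between 2 libraries of a sample were as large as many differences between regions. The second libraries held 12.02% to 17.2% mitochondrial counts. They did not enter the main fits, and values that rest on them are given beside the results they touch. Not every coronal sample has one, so those values come from groups that mix first and second libraries. In some embryos of E18.5 the regions then came from different kinds of library. Such values are not a repeat with 1 kind of library.

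Cells of the coronal suture were also sequenced one by one, in 2 libraries per stage, each from pooled embryos, so there is no test and the intervals (95%, exact Poisson) cover counting error only. After the filters the E16.5 libraries kept 472 and 340 cells (medians of 2504 and 2123 UMIs), and those of E18.5 kept 2449 and 1579 cells (medians of 18657 and 7134 UMIs). Stage follows the sample labels here, although an E16 code stands in the deposited names of these later matrices. In the matrices labelled E18.5, 2625 and 1624 cells had over 800 detected genes. The paper states the same final cell numbers for its libraries of the later stage. In those labelled E16.5, 497 and 359 cells had over 800 detected genes. Where it describes library preparation, the paper states larger final cell numbers for the earlier stage. The reason for this shortfall was not tested. The chemistry differed between the stages, so they were not compared, and no doublet caller was run. The cells of each stage were clustered without the genes of the MMP and TIMP families, which gave 9 clusters for E16.5 and 14 for E18.5. Values are UMIs (unique transcript molecules) per 1000000 UMIs of a cluster, in library 1 and library 2. The libraries of a stage shared 1 and 5 cell barcodes.

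Timp1 was highest in the osteoblast-like cells at both stages, at 653 (485 to 861) and 961 (767 to 1190) UMIs per 1000000 at E16.5. At E18.5 it was 1552 (1506 to 1600) and 1042 (1005 to 1079). With a minimum of 1000 detected genes in place of 800, the values at E16.5 were 239.8 and 418. Next at E18.5 was a cluster led by Tnn and Tppp3, with 876 and 857. In macrophage-like cells, as a background type, it was 0 in both libraries at E16.5 (upper limits 25.2 and 58.1) and 97.8 and 77.1 at E18.5, and in erythroid-like cells of E18.5, present in library 2 only, 115. Timp3 was the reverse, at 13.1 (0.331 to 72.8) and 11.4 (0.290 to 63.8) in osteoblast-like cells of E16.5, and at 40.4 and 80.6 in those of E18.5. It was 561 and 480 in dura mater-like cells at E16.5, and at E18.5 501 and 499 in ectocranial mesenchyme-like and 441 and 821 in endothelial-like cells, with macrophage-like cells at 38.7 and 22.6.

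Timp2 was the most widespread, with UMIs in every cluster of at least 10 cells in a library. It reached 971 (863 to 1088) in hypodermis-like cells of E16.5 in library 1, the library that held 122 of the 123 cells of that cluster, and 591 and 542 in dura mater-like cells. At E18.5 it was 665 and 413 in chondrocyte-like and 287 and 230 in osteoblast-like cells, but also 241 and 280 in macrophage-like and 66.1 in erythroid-like cells. The chondrocyte-like value of library 2 rests on 13 cells, here and for Mmp14 below. Mmp2 at E18.5 was highest in a cluster led by Nppc and Col14a1, at 590 (574 to 606) and 569 (508 to 636), with 513 and 397 in suture mesenchyme-like, 251 and 283 in osteoblast-like and 67.9 and 54.5 in macrophage-like cells. Mmp14 at E18.5 was 525 and 355 in chondrocyte-like cells, 120 and 119 in osteoblast-like cells and 60.9 and 89.3 in macrophage-like cells. At E16.5 it was 434 and 568 in ectocranial mesenchyme-like cells. Mmp16 at E18.5 was highest in a cluster led by Igfbp6 and Bace2, at 137 (123 to 153) and 168 (125 to 220), with 57.2 and 86.02 in osteoblast-like cells.

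**Figure D3:**
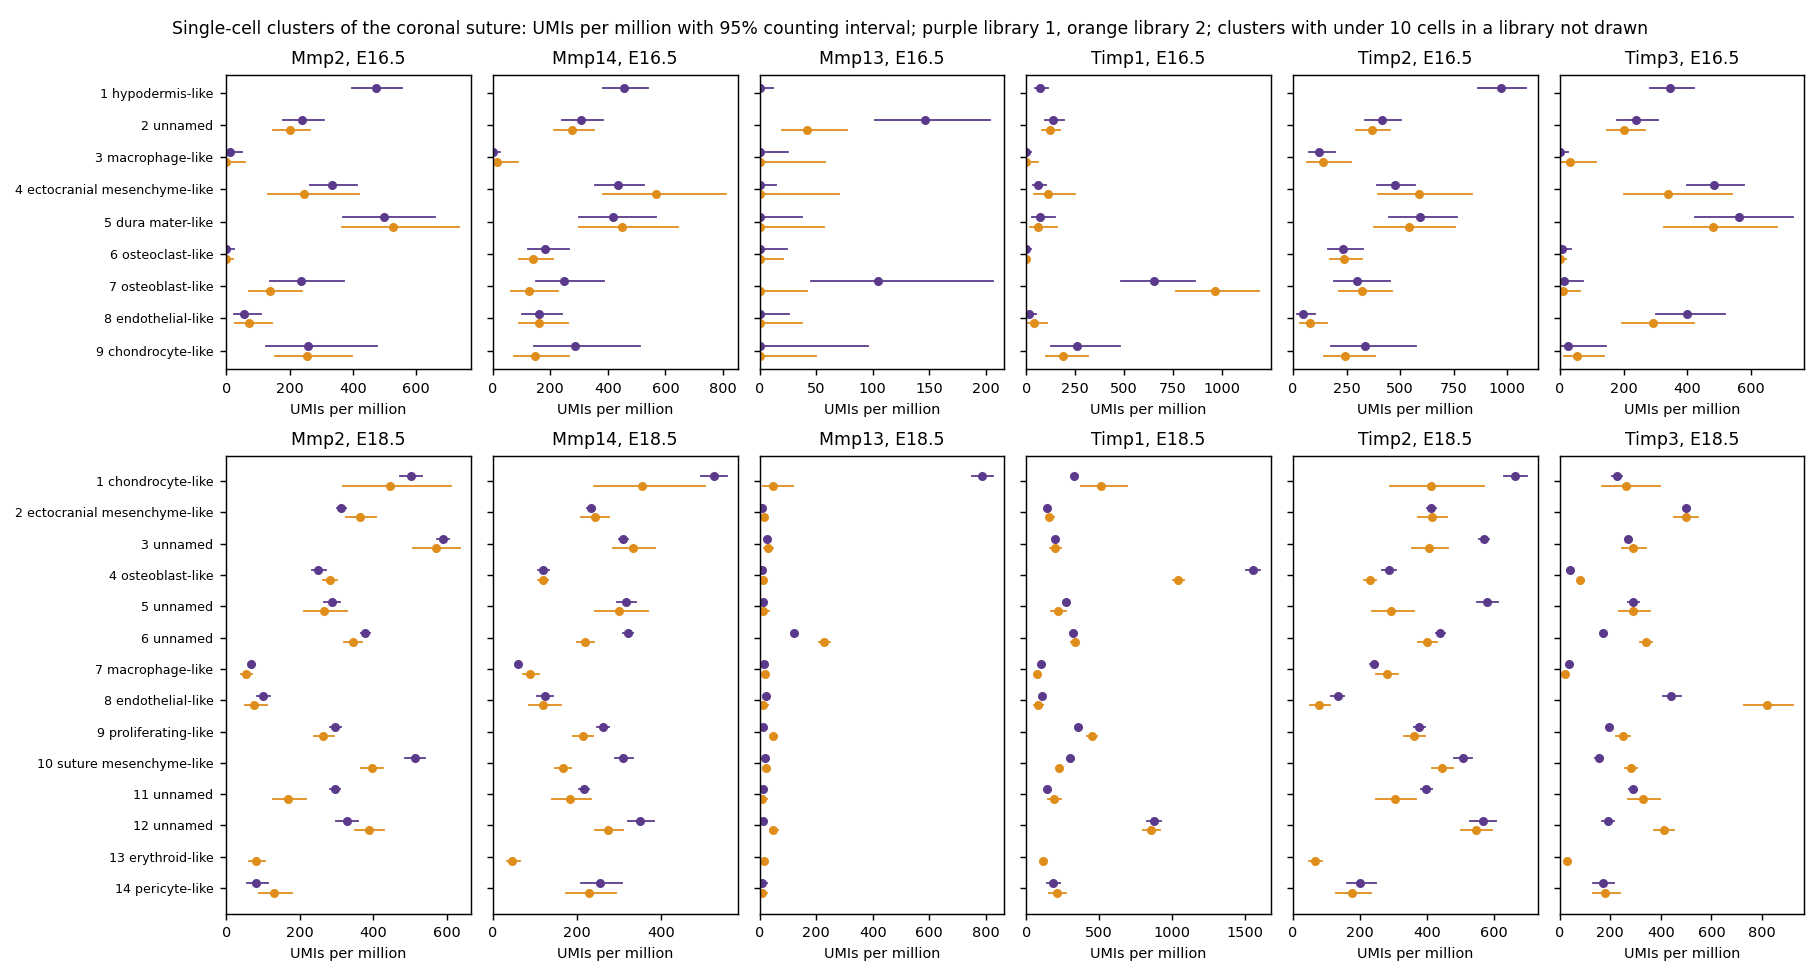
UMIs per 1000000 of 6 genes by cluster of coronal cells of both stages (bars on the points are 95% exact Poisson intervals; purple, library 1; orange, library 2; clusters with under 10 cells in a library not drawn). Timp1 was highest in osteoblast-like cells at both stages, and Timp3 was near its lowest there.

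At E16.5 Mmp13 was seen in an unnamed cluster led by Tnn and Tnc, at 146 (102 to 203) and 41.8 (20.1 to 76.9), and in the osteoblast-like cells of library 1, with 8 UMIs. All other clusters of that stage were at 0, but some were small, with 12 chondrocyte-like cells in library 1 and 20 dura mater-like cells in library 2. A 0 in so few cells does not show absence, and the value of the unnamed cluster in library 2 rests on 10 UMIs. Runx2 and Fgfr2 were among the 10 top genes of the unnamed cluster. At E18.5 the 117 chondrocyte-like cells of library 1 held 1739 UMIs of Mmp13, or 786 (750 to 824) per 1000000, of which 84.4% lay in 10 cells. Library 2 had only 13 such cells, which held 4 UMIs. A cluster led by Gpx3, Cp and Postn held 121 (114 to 129) and 229 (209 to 250), with 39.8% and 44.5% of its UMIs in 10 cells. Alpl was among the 10 top genes of this cluster. In osteoblast-like cells of E18.5, a cluster led by Ibsp and Bglap, Mmp13 was 7.34 and 11.4, no more than the 16.7 and 19.7 of macrophage-like cells. The paper reports Mmp13-expressing osteoblasts at both stages, apart from Ibsp-expressing ones, and clusters here were not matched to its populations. The suture mesenchyme-like cells of E18.5 held 50 and 39 UMIs of Mmp13 in 147 and 188 cells. The cluster led by Gpx3 held 1059 and 485 in 416 and 267 cells. Mmp11 at E18.5 was highest in pericyte-like cells, at 146 (112 to 188) and 25.8 (10.4 to 53.1). Timp4 had 0 UMIs at E16.5 in both libraries and 8 and 1 at E18.5.

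Genes with the pattern most like each member were ranked by Pearson r over the 20 group means of log2 CPM, centred within each suture, among 19767 genes. These points share libraries and are a description. Mmp14 and Timp2 were each other's nearest gene (r = 0.94), followed by Abhd4 (0.91) and Pbxip1 (0.90) for Mmp14 and by Samd4 (0.94) and Hyal1 (0.94) for Timp2. Mmp2 was nearest to Cep295nl (0.98), a gene that lies within Timp2, then Fchsd1 (0.97) and C1qtnf2 (0.97), and its r was 0.82 with Timp2 and 0.80 with Mmp14. Timp1 was nearest to Aurkaip1 (0.97), Sec22a (0.97) and Pkm (0.96), and its r was -0.69 with Timp2 and -0.58 with Mmp14. Mmp11 was nearest to Il17rd (0.96), Gm43792 (0.95) and Chst10 (0.94), Mmp13 to Lrrc1 (0.85), Clcn3 (0.80) and Apold1 (0.79), and Mmp16 to Wnt5a (0.87), Cdh4 (0.86) and Scrn1 (0.85). Timp3 was nearest to Thra (0.88), Gm43793 (0.88) and Ddx43 (0.88), and Timp4 to 1500009L16Rik (0.90), Gm38377 (0.84) and Spindoc (0.84).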

How the data were processed

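Per the labels and the study's methods, the authors cut sutures from frozen sections by laser, isolated RNA (PicoPure), amplified it (Ovation V2) and built Nextera XT libraries for Illumina sequencing. The authors mapped the reads to mm10 with STAR 2.5.3a and deposited unstranded featureCounts 1.6.4 counts per gene (GENCODE vM22) for each of 134 libraries. The authors deposited UMI counts per gene and cell from Cell Ranger for the 4 single-cell libraries. A deposited table of the authors' own log2 ratios was not used.

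The filter on low counts asked for 1 CPM or more in more than 10% of the first libraries, 100 in number. TMM-scaled counts were fitted with edgeR 4.0.16 (R 4.3.3) and its quasi-likelihood test. Comparisons within embryos used the embryo as a block, because regions of the same embryo are paired by design (median r of deviations 0.0475 over 80 same-embryo pairs, 19 of them over 0.1, against -0.0117 over 320 other pairs). Stage comparisons used group means. P-values were adjusted by Benjamini-Hochberg over all 19768 genes within a comparison, and 0.05 was the threshold. In the mean of 12 comparisons, 105 genes, none of them a member, got a p of 1 because a reduced fit failed. Replicates are embryos sharing litters, so p-values measure the spread between these embryos. The spread of a gene was estimated over all groups of the 100 first libraries together, and not over the groups compared. Groups with a larger spread than the others can therefore get p-values that are too small. Counting intervals cover counting error only. On simulated data for the lambdoid E16.5 parietal OF against SM (4942 genes), 37 of 100 genes changed by 1 on the log2 scale and 62 of 100 changed by 2 were found, and 1 of 4742 unchanged genes was called. The simulated libraries had no embryo or litter effect, and a gene had the same spread in all groups. A smaller share of genes was changed than the 24% that passed in the real comparison. These rates need not hold for the real data.

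Cells with over 800 genes and within 3 median absolute deviations were clustered per stage (scanpy 1.11.5, 2000 variable genes, Leiden resolution 0.8), leaving out 27 MMP and TIMP genes. Clusters were named from marker lists. The members and all gene lists were chosen with earlier results of these data known. All 9 members were tested in every comparison, and some that did not pass are given by their range or count. From each pathway list the text names up to 4 genes per direction past the threshold, by adjusted p, in the mean of 12 or the SM stage difference. The values of 1 such gene are not reported here. Marker lists are given as counts and ranges, and the 3 genes most like each member by r. The second coronal libraries, a fit without the block, other scalings, DESeq2 1.42.0, limma 3.58.1 (voom), no filter, summed littermates and leaving out each replicate were alternatives. Leaving out the 3 libraries over 45% mitochondrial counts was chosen after seeing the data.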

Additional observations from a re-analysis of the deposited data

Results flagged for a closer look

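In 18 of 180 groups of 5 libraries, 1 library lay far from the other 4, with a gap to its neighbour above 0.71 of the range of the group. It was the highest in 14 and the lowest in 4. About 1 in 20 groups of normally distributed values would pass this limit. CPM values need not be normal, so 18 of 180 cannot be set against that rate. For Mmp2, 267 CPM stood apart in the frontal OF of the frontal suture at E16.5 (next 182 CPM), 840 CPM in the coronal frontal OF at E18.5 (next 651 CPM) and, as the lowest, 564 CPM in coronal SM at E18.5 (next 781 CPM). For Mmp11 it was 12.5 CPM in the sagittal OF at E16.5 (next 8.76 CPM) and, as the lowest, 12.7 CPM in the sagittal SM (next 16.4 CPM). For Mmp13 it was 17.3 CPM in the coronal parietal OF at E16.5 (next 6.80 CPM) and 24.7 CPM in coronal SM at E18.5 (next 12.8 CPM). For Mmp14 it was 338 CPM in the coronal frontal OF at E18.5 (next 221 CPM), and for Mmp16 254 CPM in the frontal OF of the frontal suture at E18.5 (next 121 CPM). For Timp3 it was 297 CPM in the coronal parietal OF (next 199 CPM) and 485 CPM in coronal SM (next 289 CPM) at E16.5, 109 CPM in the sagittal OF at E16.5 (next 101 CPM) and, as the lowest, 239 CPM in coronal SM at E18.5 (next 340 CPM) and 116 CPM in sagittal SM at E16.5 (next 139 CPM). For Timp4 it was 0.237 CPM in the coronal parietal OF, 2.52 CPM in the lambdoid interparietal OF, 2.37 CPM in the lambdoid parietal OF and 1.35 CPM in the sagittal OF, all at E18.5.

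The difference between OF and SM differed between the stages, by the test of that difference, for Mmp11 (1.68) and Mmp16 (-1.96) at the coronal frontal OF and for Mmp13 (-3.37), Mmp16 (-1.55) and Timp2 (-0.61) at the coronal parietal OF, all on the log2 scale. It differed among the 12 comparisons for 8 members, with F = 9.52 for Mmp2, 4.65 for Mmp11, 13.52 for Mmp13, 10.55 for Mmp14, 22.79 for Mmp16, 7.33 for Timp1, 13.80 for Timp2 and 2.59 for Timp3.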

How the results depend on the processing

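Counts of calls moved most where few genes passed. The shares of all genes or tests that passed were given for the main fits only. Of 54 stage differences of OF minus SM, 5 passed, 8 with DESeq2, 9 without the filter on low counts and 2 to 5 without 1 replicate. Of 36 front-to-front tests, 7 passed, 3 with the second coronal libraries and 4 to 7 without 1 replicate. More passed with DESeq2 (5 higher, 4 lower) and voom (5 higher, 3 lower). Of 90 stage tests, 26 passed, 12 with littermates summed and 17 to 25 without 1 replicate. With DESeq2, and with first and second coronal libraries summed, 24 were higher and 5 lower. The 63 calls between OF and SM were 59 to 62 without 1 replicate and 62 to 69 under the other alternatives. Without the embryo block, which pairs the regions, 62 of these passed, with 5 stage differences of OF minus SM and 6 front-to-front tests, not all of them the same calls. Among stage differences, Mmp11 at the coronal frontal OF (adjusted p = 0.183) and Mmp13 at the parietal OF (0.0578) were lost, and Mmp11 (0.022) and Timp4 (0.00463) at the parietal OF were gained. Between fronts, Mmp2 in the coronal suture at E18.5 (0.112) and Timp1 in the lambdoid suture (0.0995) were lost and Mmp2 in the coronal suture at E16.5 (0.043) gained. Between OF and SM in the coronal suture at E16.5, Timp4 at the frontal OF (0.103) and Mmp14 at the parietal OF (0.0836) were lost and Timp4 at the parietal OF (0.00227) gained, and the mean of 12 of Timp4 was lost (0.241). In complete sutures without TMM, the sagittal means were 302.5 CPM for Mmp14 and 131 CPM for Mmp16, against 318 and 138 CPM. In single cells, a minimum of 1000 genes gave Timp1 in osteoblast-like cells of E16.5 as 239.8 and 418 UMIs per 1000000, and 30 principal components gave 1458 in library 1 of E18.5. Among the results that passed and the means described, directions turned for Timp4, whose stage difference in the coronal parietal OF was 0.13 with the second libraries, and whose stage difference over SM was -0.48 with voom, -0.20 with the second libraries, -0.031 with first and second libraries summed, and -0.37 to 0.26 without 1 replicate (-0.014 and -0.37 without replicates 1 and 2). The causes were not tested. For the 113 such results of the other members, 1787 values were recomputed under 17 alternatives, of which 1641 kept direction and side of the threshold and 146 kept direction but no longer passed. Single tests that passed only under an alternative are not counted there. Scaling by total counts moved the median of all genes by -0.29 to -0.01 between OF and SM and by -0.2 to 0.45 between stages. Mmp13 and Timp4 were at 0 in 4 and 29 of 100 libraries, and such zeros allow up to 3 counts.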
